A study of Homo sapiens with 24 samples.

Results

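Untreated 5637 cells were compared with CLS-439, T24 and TCC-SUP, 3 other untreated lines from bladder cancer. The comparison takes the 12 untreated libraries out of 24 in the series, 3 of each line, and sets 5637 against the mean of the other 3 lines with each line weighted equally. The series measured messenger RNA in the same 4 lines with and without mitomycin C, a drug that crosslinks DNA. Treated cells received 75 µM of the drug for 1 h and RNA was taken 15 h later. Untreated cells carry the tag NT and no drug, and have the same 15 h harvest time. The 4 groups used here differ by line, and any difference in culture or handling between lines cannot be told apart from it. Treated libraries, whose tag is spelled MCC, serve below only as a second set of libraries of the same lines. Replicates are numbered 1, 3 and 4, and the series' design text calls them biological replicates. Each line is 1 cell line, so every p-value measures the spread between libraries of these lines and says nothing of bladder tumours of a kind. In bulk samples, fewer cells of a type and less RNA per cell cannot be told apart.

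Urothelium is renewed from basal cells, which carry the transcription factor TP63, the keratins KRT5 and KRT14, and hemidesmosomes that fix them to the basement membrane. Umbrella cells at the surface carry uroplakins and luminal keratins under GATA3, FOXA1 and PPARG. Grainyhead factors such as GRHL2 hold epithelial junction genes on, whereas ZEB1 represses them. Interleukin 1 released by epithelial cells acts on its receptor to switch on NF-kB, which in turn drives neutrophil chemokines and colony-stimulating factors.

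Counted reads per library ran from 21920170 to 23810260 in 5637, 24150912 to 28821665 in T24, 22013754 to 23121939 in TCC-SUP and 17103409 to 20863429 in CLS-439. Levels below are CPM (read counts relative to the library total, which TMM adjusted for composition), given for replicates 1, 3 and 4 in that order. A gene with 0 counts in all 3 libraries of a group is under 0.0458 CPM in 5637, 0.0388 in T24, 0.0459 in TCC-SUP and 0.0476 in CLS-439, the level of 3 counts over the group, which covers counting error only. The CLS-439 libraries stood apart from the other 9. Mitochondrially encoded genes took 0.0238% to 0.0283% of their reads, against 3.21% to 5.1% in the other lines, and processed pseudogenes took 2.9% to 3.05% against 0.156% to 0.225%. Log2 CPM across genes correlated with 5637 at Pearson r of 0.895 to 0.898 for T24, 0.833 to 0.847 for TCC-SUP and 0.697 to 0.703 for CLS-439. These r are across genes, which are not independent replicates. Whether the RNA of the CLS-439 libraries matches the human reference as well as that of the other lines was not tested. Every CLS-439 level and every mean of the 3 lines rests on that match, so counts and list medians are also given without CLS-439.

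Of 19523 genes tested with edgeR, 7047 (36.1%) were higher in 5637 and 5945 (30.5%) were lower at a Benjamini-Hochberg adjusted p under 0.05. Of these, 3565 higher and 3265 lower genes differed by 1 or more on the log2 scale. The median log2 fold change of all genes tested was -0.06. A stricter set had all 3 libraries of 5637 outside the range of the 9 others: 2620 called genes (13.4%) above and 2062 (10.6%) below. Against T24 and TCC-SUP alone, 16789 genes were tested, 6050 (36%) were higher, 5477 (32.6%) were lower and the median was 0.01. The member counts of each gene list below are to be read against these shares. Listed genes with too few reads were not tested and are not in those counts. A member read in 5637 alone passed the filter through 5637 and could not be called lower. Lists share members, and the marker genes described next are counted in them. KRT5 and TP63 are counted as basal genes, GRHL2 as an epithelial gene and IL1A in the IL1 family.

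The 4 marker genes of 5637 were all higher in it. They were named as markers of this comparison before these tests, so their direction and separation are a description and no independent support. GRHL2, the grainyhead factor of epithelial junctions, had 85.8, 95 and 91.1 CPM in 5637 and 0 counts in each of the 9 other libraries. KRT5, the basal keratin, had 1179, 1128 and 1057 CPM in 5637. In the other lines KRT5 reached 0.044 CPM in T24, 1.15 in TCC-SUP and 0.302 in CLS-439 at most. The 5637 libraries of both genes lay far above all others with no overlap. GRHL2 was at least 2330-fold higher than in T24, 1970-fold than in TCC-SUP and 1900-fold than in CLS-439. KRT5 exceeded TCC-SUP, the nearest line, by 10.76 on the log2 scale, and its adjusted p against the mean of the lines was 2.49e-21 by edgeR.

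TP63, the basal cell transcription factor, had 108, 119 and 121 CPM in 5637, 2.14, 2.02 and 2.49 in TCC-SUP, and at most 0.0503 in a library of T24 or CLS-439. It was 5.70 (log2) above TCC-SUP, again the nearest line. IL1A, the epithelial alarm cytokine, had 797, 750 and 650 CPM in 5637. T24 had 16.2, 8.4 and 8.6 CPM of IL1A, TCC-SUP 3.57, 3.29 and 2.49, and CLS-439 0.675, 0.411 and 0.603. All 3 libraries of 5637 were above the 9 others for both genes. The log2 fold change of IL1A was 8.08 ± 0.17 (SE) against the mean of the lines, with an adjusted p of 1.9e-15 by edgeR, and 6.98 without CLS-439.

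The named genes with the widest gap to the nearest other line included KRT5 and GRHL2 and were otherwise of mixed function. LHFPL4, a protein of inhibitory synapses, had 53, 43.3 and 42.4 CPM in 5637 and 0 counts in the 9 others, at least 972-fold above CLS-439. DSCAM, a neural adhesion molecule, had 16.4, 16.6 and 17.2 CPM and also 0 counts in the 9 others, at least 352-fold above CLS-439. Both were thus read in 5637 alone among the untreated libraries. DAPP1, an adaptor of phosphoinositide signalling, had 43.7, 44.6 and 48 CPM, with 1 count in all the other libraries together. ANO1, a calcium-activated chloride channel, had 386, 364 and 380 CPM in 5637 and between 0.0503 and 0.402 in the others, a difference of 11.03 ± 0.11 on the log2 scale (SE, adjusted p 1.11e-24 by edgeR). CCND1, the cyclin D1 gene in the same stretch of chromosome 11, had 702, 732 and 736 CPM in 5637 against 927 to 1142 in T24, and its log2 fold change of 0.67 became 0.17, not called, without CLS-439. GDA, guanine deaminase, ranged from 342 to 404 CPM in 5637, and LAD1, a basement membrane zone protein, from 231 to 238. The gap junction gene GJB6 ranged from 24.9 to 44 CPM, GPAT2 from 25.2 to 31.6, and the wound keratin KRT6A from 132 to 170. None of these 5 genes passed 0.411 CPM in a library of another line.

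The genes below all other libraries with the widest gap were a mixed set. SH3BGRL, a small thioredoxin-fold protein on the X chromosome, had 0.0477, 0.138 and 0 CPM in 5637 and 33.8 to 68.1 in the 9 others. ZEB1, the repressor of epithelial genes, had 0.0953, 0.231 and 0.0873 CPM, against 26.7, 26.9 and 46 in T24, 17, 18.8 and 18.6 in TCC-SUP, while CLS-439 had 37, 40.3 and 41.8. Genes of this set were chosen for lying below all 9 other libraries, and the leading higher genes for lying above them. That separation therefore follows from the choice. The log2 fold change of ZEB1 was -7.66 ± 0.30 (SE), with an adjusted p of 1.56e-14 by edgeR and -7.41 without CLS-439. TMEM173, which encodes the DNA-sensing adaptor STING, had 1.1, 1.48 and 1.05 CPM against 36.1 to 58.2 in the others, a difference of -5.22 ± 0.18 on the log2 scale (SE, adjusted p 3.47e-16 by edgeR). IGFBP5, an insulin-like growth factor binding protein, had 0.143, 0.738 and 0.349 CPM, against 18.2 to 26.9 in CLS-439, 145 to 237 in T24 and 2356 to 2450 in TCC-SUP. EMP3, a membrane protein, ranged from 0.415 to 0.667 CPM in 5637 and EEF1A2, a translation elongation factor, from 0.48 to 0.619. Their log2 fold changes were -7.40 and -7.28. TTC28 had at most 0.0461 CPM in 5637 and at least 12.4 elsewhere, and the zinc finger gene ZNF528 at most 0.0873 and at least 11.1. MAGEH1 (-7.36), ADAMTS16 (-6.53), GGT7 (-5.96) and NPDC1 (-5.11) completed the set by their log2 fold changes.

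**Figure D1:**
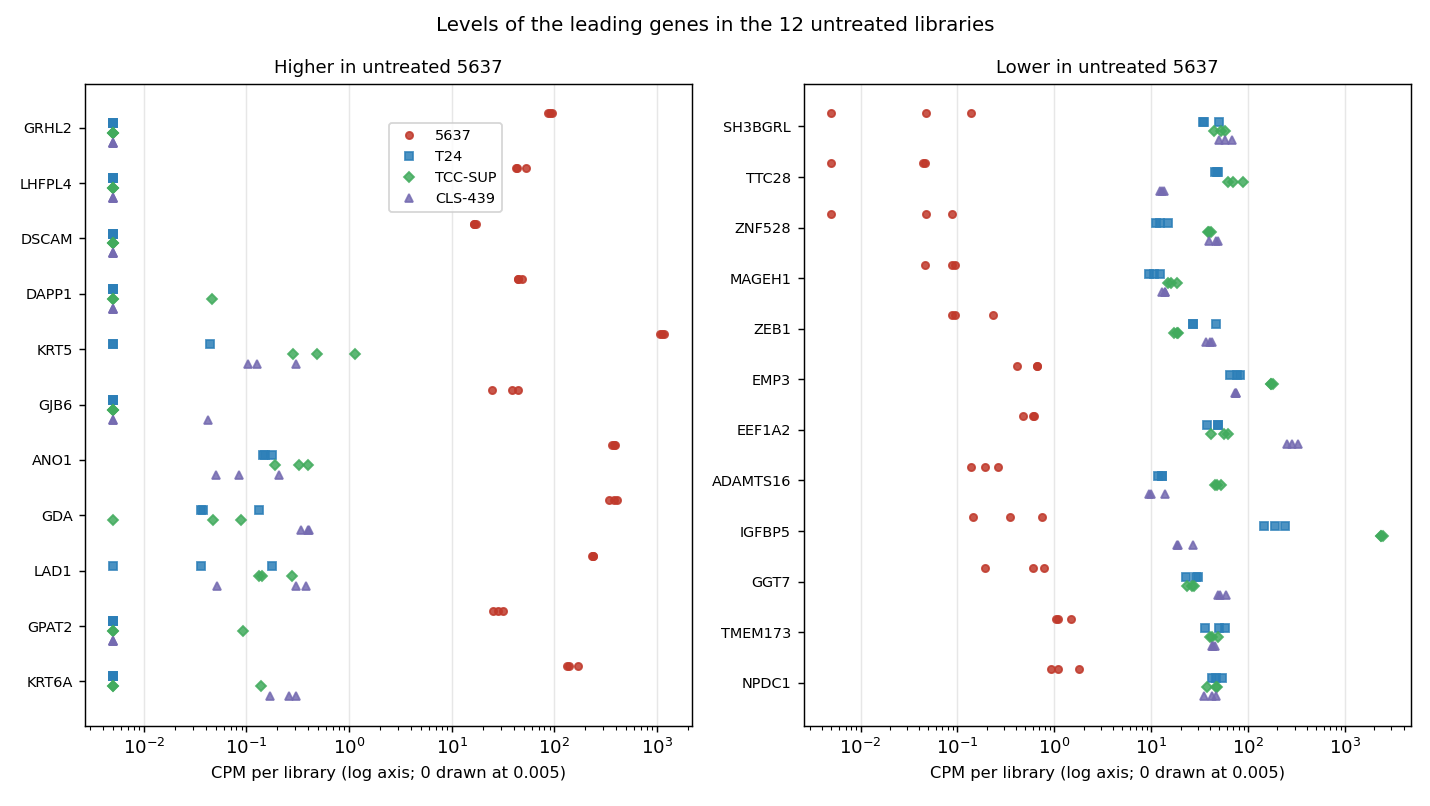
Level of each leading gene in each of the 12 untreated libraries, in CPM on a log axis, with 0 drawn at 0.005; each point is 1 library and each line has its own colour and symbol. By the choice of genes, the 5637 libraries stand above all others in the left panel and below all others in the right panel. In the left panel GRHL2, LHFPL4 and DSCAM have 0 counts in the 9 others.

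Basal urothelial genes were almost all higher in 5637. Of 17 tested members, 16 were higher and 1 was lower, with a median log2 fold change of 5.01, and 13 of the 16 were above all 9 other libraries. Without CLS-439, 15 were higher, 1 was lower and the median was 5.84. COL17A1, the hemidesmosome collagen, had 592, 695 and 639 CPM in 5637, while its highest level elsewhere was 7.6 CPM in a T24 library. Its log2 fold change was 8.03 ± 0.17 (SE, adjusted p 1.24e-14 by edgeR). CDH3, or P-cadherin, had 216, 194 and 198 CPM in 5637 and 124, 64 and 101 in TCC-SUP, so here TCC-SUP came near. KRT14, the partner keratin of KRT5, went the other way: its levels were 0.286, 0 and 0 CPM in 5637, 13.1, 7.9 and 14 in TCC-SUP, while CLS-439 had 28.2, 56.2 and 60.8. EGFR, the epidermal growth factor receptor, was called higher at 1.36, yet CLS-439 (912 to 946 CPM) lay within the 5637 range of 834 to 1009. CD44 was called at 0.49, but at -0.18 without CLS-439 it was not.

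The matrix ligand and receptor that join basal cells to the basement membrane stood out by level. LAMA3 and LAMB3 are chains of the laminin that serves as the main ligand. LAMA3 had 1840, 1985 and 1845 CPM in 5637 and no more than 38.4 in any other library. LAMB3 had 1169, 1312 and 1299 CPM in 5637 and 463 to 481 in T24. For both chains the 5637 libraries were above all others, with log2 fold changes of 6.51 (LAMA3) and 4.90 (LAMB3). ITGB4, the integrin chain that binds this laminin, had 1989, 1970 and 1999 CPM in 5637 and at most 64.2 elsewhere, a difference of 6.56 ± 0.27 on the log2 scale (SE, adjusted p 9.71e-09 by edgeR). In the whole desmosome and hemidesmosome list, 16 of 18 tested members were higher and 2 were lower, with a median of 3.84 (16 and 1 of 18 without CLS-439, median 3.96). The 2 lower ones were the desmosomal plakophilin PKP2 (-0.30, and not called at -0.26 without CLS-439) and DST, the hemidesmosome linker dystonin (-1.65). DSP, desmoplakin, had 96.5 to 116 CPM in 5637 and was higher still in CLS-439, at 194 to 250.

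Genes of epithelial identity and junctions were mostly higher as well. Of 30 tested members, 26 were higher, 1 was lower and the median was 4.25. Without CLS-439, 27 of 28 were higher, 1 was lower and the median was 5.03. CDH1, or E-cadherin, had 157, 161 and 177 CPM in 5637, at most 0.0375 in T24, 60, 15.8 and 51.5 in TCC-SUP, while CLS-439 had 2.45, 1.9 and 1.81. The groups did not overlap, and the log2 difference from TCC-SUP, the nearest line, was 1.96. ESRP1, an epithelial splicing factor, had 96.2, 105 and 115 CPM in 5637 and 1.94, 2.52 and 2.82 in CLS-439, with at most 0.0924 in the other lines. ST14, or matriptase, had 112, 102 and 108 CPM in 5637 and at most 1.89 elsewhere, a log2 difference of 6.41 from TCC-SUP. MARVELD3 and the OVOL factors OVOL1 and OVOL2, which repress ZEB1, lacked reads in at least 1 other line. OVOL1 had 17.7, 17.5 and 15.4 CPM in 5637, and OVOL2 7.86, 6.28 and 8.52. Neither passed 0.566 CPM in a library of another line. The tight junction gene TJP3 was the lower one, with 0 counts in 5637 and 1.34 to 1.86 CPM in CLS-439. OCLN (0.29, adjusted p 0.156 by edgeR) and GRHL1 (0.32, adjusted p 0.0846) were not called. Without CLS-439, OCLN was called lower at -0.81 and GRHL1 higher at 0.99. The letters AACC, any base and GTT, a grainyhead site searched on both strands, occurred in the 250 bases before the start of 1.85% of 27305 genes in the RefSeq GRCh38.p14 promoter table. They occurred in 1 (CGN) of the 12 epithelial genes called higher that the table holds, and no match says only that these letters are not in that window.

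**Figure D2:**
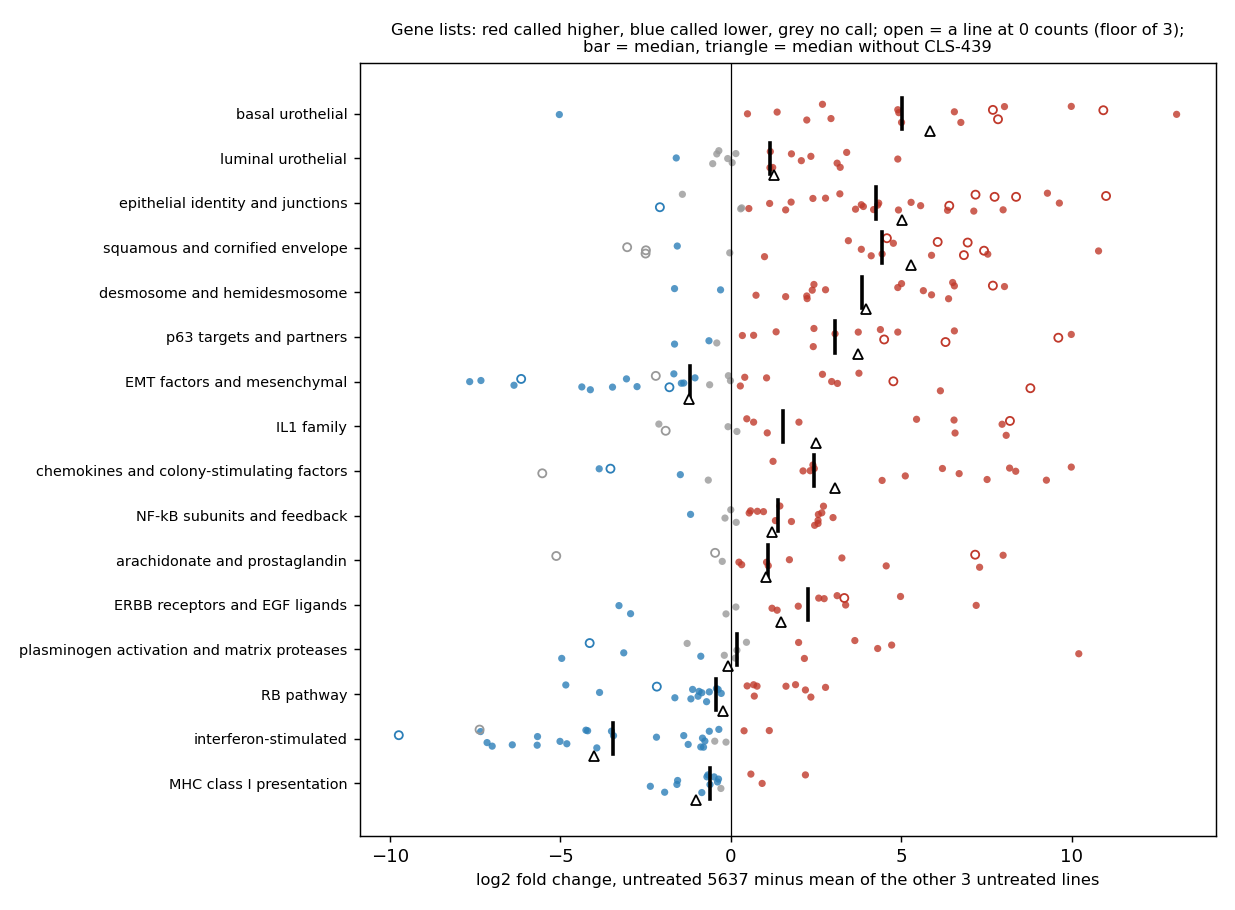
Log2 fold change of untreated 5637 against the mean of the other 3 untreated lines for each tested member of 16 gene lists; each point is a gene, red called higher, blue called lower and grey not called, open points have a line at 0 counts and use a floor of 3 counts, bars are list medians and triangles medians without CLS-439. Basal (5.01) and epithelial (4.25) medians lie far to the right and the interferon-stimulated median (-3.47) far to the left.

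Luminal genes gave a less uniform picture. Of 22 genes listed, 17 had enough reads to be tested. Of these 17, 10 were higher, 5 of them above all 9 other libraries, and 1 was lower, with a median of 1.16 (12 and 3 of 17 without CLS-439, median 1.28). PPARG, a luminal nuclear receptor, had 122, 143 and 129 CPM in 5637 and at most 96.2 elsewhere, and its log2 fold change was 1.23 (1.07 without CLS-439). PPARG lies in a stretch of chromosome 3, described below, where 14 of 14 genes of its window were higher, with a median of 2.45. GRHL3, a grainyhead factor, was higher at a low level, with 2.95, 1.2 and 1.79 CPM in 5637 and at most 0.446 elsewhere (3.21). KRT19, a keratin of all urothelial layers, had 1174, 1092 and 1024 CPM in 5637, above the 363 to 434 of T24 and the 144 to 149 of TCC-SUP. ELF3, an epithelial ETS factor, had 15.9, 11 and 12.4 CPM, just above the highest TCC-SUP library at 8.82. KRT7 and KRT8 were called higher (1.78 and 1.16), although T24 had more of both, 2084 to 3261 CPM of KRT7 against 1713 to 2069 in 5637. GATA3 had 34.5, 29.4 and 32.5 CPM in 5637 and 51.1 to 60.7 in TCC-SUP: its log2 fold change was 1.15 with CLS-439 and -0.29, not called, without it. FOXA1, the luminal pioneer factor, was lower, at 5.34, 6.28 and 7.6 CPM against 32.2 to 56.5 in T24 and 17.9 to 20.2 in TCC-SUP (-1.60 ± 0.18 SE, adjusted p 2.29e-07 by edgeR). CLS-439, at 7.13 to 11.1 CPM, overlapped 5637 for FOXA1. The uroplakin UPK1B, a protein of the apical plaque, was called higher, with 1.89 to 2.18 CPM in 5637, but CLS-439 had 4.68 to 7.84.

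Squamous and cornified envelope genes were higher too, but many at low level. Of 25 genes listed, 19 had enough reads to be tested. Of these 19, 14 were higher, 1 (the plakin PPL) was lower, and the median was 4.44. Members read in 5637 alone, such as SPRR2A and SPRR1B, were tested only because of their reads in 5637 and could not be called lower. Without CLS-439, 15 of 16 were higher, with a median of 5.30. SPRR2A, a small proline-rich envelope precursor, had 11.3, 5.35 and 6.03 CPM in 5637 and 0 counts in the 9 others, at least 159-fold above CLS-439. SPRR1B had 6.58, 4.52 and 4.02 CPM and also 0 counts elsewhere. IVL, or involucrin, had 6.77, 5.63 and 5.68 CPM against at most 0.514 in CLS-439. S100A2, a calcium-binding protein of basal keratinocytes, was abundant, at 1502, 1489 and 1186 CPM against at most 413 in another library (3.83 ± 0.11 SE, adjusted p 5.61e-16 by edgeR). The terminal kallikreins KLK5 and KLK7 had 0 counts in 5637 and were read in CLS-439 alone, at 7.89 to 12.4 CPM. The letters TGANTCA, the core that AP-1 factors bind and which reads the same on both strands, occurred in the 250 bases before the start of 8.06% of 27305 genes in the RefSeq promoter table. They occurred in 6 of the 10 squamous genes called higher that the table holds. In the whole squamous list, called or not, they occurred in 9 of 18, a similar share. A match is a description of these letters and no evidence of binding. Stretches are shown for SPRR2A, SPRR1B and IVL, which are among the genes called higher that have a match. They run from 30 bases before the first match to the gene start, matches in capitals. They come from RefSeq GRCh38.p14 at chr1:153057513-153057739 (minus strand), chr1:153031032-153031202 (plus) and chr1:152908393-152908545 (plus).
SPRR2A: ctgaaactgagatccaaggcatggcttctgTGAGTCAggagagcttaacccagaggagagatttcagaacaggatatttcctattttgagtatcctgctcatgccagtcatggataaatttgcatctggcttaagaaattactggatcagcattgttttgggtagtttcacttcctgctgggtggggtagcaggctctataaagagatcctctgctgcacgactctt
SPRR1B: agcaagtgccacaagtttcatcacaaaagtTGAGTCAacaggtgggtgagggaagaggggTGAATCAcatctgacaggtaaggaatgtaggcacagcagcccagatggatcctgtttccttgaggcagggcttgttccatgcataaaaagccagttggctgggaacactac
IVL: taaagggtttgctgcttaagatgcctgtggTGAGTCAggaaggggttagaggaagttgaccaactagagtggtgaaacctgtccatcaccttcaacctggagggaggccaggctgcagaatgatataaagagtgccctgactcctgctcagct

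Known p63 targets and partners were mostly higher: 14 of 17 tested, with 2 lower and a median of 3.06 (15 and 2 of 17 without CLS-439, median 3.74). The list counts TP63 itself, and it shares members such as LAMB3, ITGB4, PERP and DST with lists above. TFAP2C had 55.5, 54.6 and 53.4 CPM, above the 26.8 to 35.1 of T24. SOX2 was read at 2.38 to 4.15 CPM in 5637 and at no more than 0.101 elsewhere. The related factor TFAP2A was lower (-0.64), as was DST.

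Mesenchymal genes split. Of 28 tested members, 10 were higher and 14 lower, with a median of -1.21 (10 and 15 of 27 without CLS-439, median -1.23). Beside ZEB1, its relative ZEB2 was low in 5637, at 3.05, 2.31 and 3.67 CPM against 19.2 to 67.1 elsewhere (-3.47 ± 0.17 SE, adjusted p 1.76e-13 by edgeR). TAGLN, or transgelin, had 6.1, 6.97 and 5.72 CPM against 188 to 1016 in the others. SPARC, a matrix glycoprotein, had 50, 50.3 and 43.5 CPM against at least 322. In the other direction, SNAI2, which represses E-cadherin and is also a basal cell factor, had 109, 119 and 121 CPM against at most 23.2, a difference of 3.13 ± 0.10 on the log2 scale (SE, adjusted p 2.82e-17 by edgeR). MMP2, a gelatinase, had 165, 205 and 188 CPM against at most 5.62 (6.15). CDH11, a mesenchymal cadherin, had 31.2, 36.6 and 38.6 CPM against at most 0.369. VIM, or vimentin, was called higher at 2.69, with 623 to 697 CPM in 5637, but CLS-439 had more, 1287 to 1575.

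Among the ligands, receptors and inhibitors of the IL1 family, 10 of 14 tested members were higher, with a median of 1.54. Without CLS-439, 8 of 13 were higher and 3 lower, with a median of 2.51. The ligand IL1B had 879, 669 and 637 CPM in 5637, 97.1, 78.1 and 74.2 in T24, 4.64, 6.49 and 5.96 in TCC-SUP and at most 0.151 in CLS-439. The order was therefore 5637, T24, TCC-SUP and CLS-439 with no overlap, and the log2 difference from T24 was 3.13 ± 0.16 (SE). IL36G, an epidermal IL1 relative, had 17.9, 11.6 and 8.91 CPM against at most 0.0375. The decoy receptor IL1R2 (26, 22.2 and 21.4 CPM) and the receptor antagonist IL1RN (11.2, 6.41 and 6.59) were above all other libraries as well, so ligands and their inhibitors were both high. IL1R1, the signalling receptor, had 25.6 to 29.4 CPM in 5637 and 24.9 to 33.1 in TCC-SUP, whose libraries overlapped. CASP1, the protease that matures IL1B, had 5.5 to 7.86 CPM. Its log2 fold change of 0.67 became -1.71 without CLS-439. IL18 (0.18, adjusted p 0.136 by edgeR) was not called, and was called lower, at -1.10, without CLS-439.

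Chemokines and colony-stimulating factors gave 14 higher and 3 lower of 19 tested, with a median of 2.45 (13 and 4 of 19 without CLS-439, median 3.06). CSF3, the granulocyte colony-stimulating factor, had 766, 389 and 383 CPM in 5637, 40.1, 32.3 and 35.8 in T24 and at most 0.154 in the others, a log2 difference of 3.83 from T24. CSF2 had 65.7, 44.7 and 41 CPM against at most 1.65. CCL20 had 63.3, 32.1 and 33.8 CPM against at most 0.178. Replicate 1 of 5637 was the highest of the 3 for each of these genes. For the neutrophil chemokines on chromosome 4 T24 was again the nearest line, and came closest for CXCL1 and CXCL8. CXCL8 had 391, 305 and 298 CPM in 5637 and 155, 177 and 205 in T24, and CXCL1 339, 228 and 254 against 222, 233 and 208, which overlap. Against T24 alone the log2 differences were 0.89 for CXCL8 (adjusted p 0.000345 by edgeR), 0.31 for CXCL1 (0.0679), 1.45 for CXCL6, 1.56 for CXCL5, 2.16 for CXCL3 and 3.28 for CXCL2. TCC-SUP and CLS-439 had at most 1.95 CPM of CXCL8 and 0.36 of CXCL1. The lower genes were CSF1 (-1.48), CCL2, which had 0 counts in 5637, and CX3CL1, which had at most 0.0477 CPM in 5637 and 6.54 to 8.56 in CLS-439. CX3CL1 was not called without CLS-439. CCL5 had 0 counts in 5637 and CLS-439 and 31.6 to 50.9 CPM in TCC-SUP.

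The letters GGGA, any base and TTTCC, an NF-kB site searched on both strands, occurred in the 250 bases before the start of 0.64% of the 27305 genes. They occurred in 6 of the 14 chemokine and colony-stimulating factor genes that the promoter table holds. All 6 were among the 11 called higher: CXCL1, CXCL2, CXCL3, CXCL5, CXCL6 and IL6. As 11 of the 14 were called higher, that overlap says little. CXCL8 had no match in that window. Among NF-kB subunit and feedback genes the letters occurred in 9 of 16, which were 8 of the 13 called higher and CYLD, which was lower. In the IL1 family they occurred in 0 of 15. A match is a description of these letters and no evidence of binding. The 5 CXCL neighbours carry the same 10 letters, which start 78 to 91 bases before the gene start. Stretches of CXCL1, CXCL2 and CXCL3 are much alike, as are those of CXCL5 and CXCL6, so these matches are not independent. The 5 stretches are shown from 30 bases before the site to the gene start, the site in capitals. They come from RefSeq GRCh38.p14 at chr4:73869284-73869392 (CXCL1, plus strand), chr4:74099196-74099303 (CXCL2, minus), chr4:74038690-74038798 (CXCL3, minus), chr4:73998678-73998798 (CXCL5, minus) and chr4:73836558-73836677 (CXCL6, plus).
CXCL1: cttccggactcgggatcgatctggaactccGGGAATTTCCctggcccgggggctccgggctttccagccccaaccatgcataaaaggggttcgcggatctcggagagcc
CXCL2: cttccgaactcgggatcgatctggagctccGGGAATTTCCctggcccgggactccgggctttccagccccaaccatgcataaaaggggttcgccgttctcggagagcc
CXCL3: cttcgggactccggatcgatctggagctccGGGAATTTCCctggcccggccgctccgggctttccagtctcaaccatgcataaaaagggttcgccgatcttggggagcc
CXCL5: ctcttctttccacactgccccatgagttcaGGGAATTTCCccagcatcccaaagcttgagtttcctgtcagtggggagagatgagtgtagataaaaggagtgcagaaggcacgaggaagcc
CXCL6: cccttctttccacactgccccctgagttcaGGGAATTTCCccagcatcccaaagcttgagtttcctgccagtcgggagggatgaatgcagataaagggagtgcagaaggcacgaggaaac

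NF-kB subunits and feedback genes were higher in 14 of 18 tested members and lower in 1, with a median of 1.38 (11 and 4 of 18 without CLS-439, median 1.22). TNFAIP3, the A20 feedback inhibitor, had 292, 279 and 322 CPM in 5637 against 13.2 to 92.8 in the others (2.72 ± 0.19 SE, adjusted p 8.48e-08 by edgeR). NFKBIA, which holds NF-kB in the cytoplasm, had 186, 146 and 159 CPM against at most 56.9 (2.46). The subunit RELB had 36.8, 34.6 and 35.9 CPM against at most 10.2 (2.67), whereas RELA was not called (-0.17, adjusted p 0.0556 by edgeR). The deubiquitinase CYLD, a brake on the pathway, was the lower one, at 15.1, 19.2 and 17.6 CPM against at least 24.7 (-1.18). In the prostaglandin list, 10 of 13 tested members were higher, with a median of 1.10 when genes with a line at 0 are set to their bound (9 and 1 of 12 without CLS-439, median 1.04). PTGS2, or COX-2, had 220, 275 and 273 CPM in 5637 and at most 10.3 elsewhere. PTGES, the prostaglandin E synthase that works with it, had 189, 159 and 161 CPM and at most 32.2 elsewhere. ALOX5, which makes leukotrienes, had 7.48, 5.77 and 5.76 CPM and 0 counts in the 9 others.

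Of the EGF ligands and receptors, 10 of 14 tested were higher and 2 lower, with a median of 2.28 (11 and 2 of 14 without CLS-439, median 1.48). The ligand TGFA had 268, 295 and 282 CPM in 5637 against at most 63 (3.37 ± 0.09 SE, adjusted p 3.74e-18 by edgeR), AREG 96.7, 117 and 86.3 against at most 44.8, and HBEGF 221, 204 and 199 against at most 145. EREG was called at 2.74, but TCC-SUP had more of it, 135 to 215 CPM against 87.7 to 122, and the value without CLS-439 was 0.09. The receptor ERBB3 had 18.6 to 20.9 CPM against at most 4.18 (3.12), while ERBB2 was not called (0.15, adjusted p 0.183 by edgeR). Plasminogen activators and matrix proteases split 6 higher and 4 lower of 15, with a median of 0.18 (5 and 6 of 15 without CLS-439, median -0.09). MMP1, a collagenase, had 1830, 2571 and 1879 CPM in 5637 against at most 52.4, and PLAU, or urokinase, 1246, 1047 and 1054 against at most 370. TIMP1, an inhibitor of matrix proteases, was lower, at 22.5 to 25.2 CPM against 163 to 292 (-3.14). In the SERPINB family of protease inhibitors, 5 of 9 were higher and 1 lower, with a median of 1.94 (5 and 2 of 8 without CLS-439, median 0.71). SERPINB2 led, at 384 to 494 CPM against at most 80.7.

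The RB pathway, which gates entry into S phase, was uneven, with 9 higher and 14 lower of 23 tested and a median of -0.42 (7 and 10 of 22 without CLS-439, median -0.23). RB1, the pocket protein itself, had 3.53, 5.17 and 4.89 CPM in 5637, 122, 113 and 137 in T24, 17.9, 15.5 and 12.5 in TCC-SUP, while CLS-439 had 145, 148 and 147. All 3 libraries of 5637 were below the lowest TCC-SUP library, which was itself far below T24 and CLS-439. The log2 fold change of RB1 was -3.85 ± 0.14 (SE, adjusted p 4e-16 by edgeR) against the mean and -1.75 against TCC-SUP. CDKN2C, an inhibitor of CDK4 and CDK6, had 3.05, 2.68 and 2.66 CPM against at least 64.4 (-4.84 ± 0.13 SE). CDKN2A, another such inhibitor that cells without RB activity often carry at high level, had 148, 143 and 148 CPM in 5637 and 188 to 222 in TCC-SUP, against at most 35.2 in T24 and 4.07 in CLS-439. E2F3, a transcription factor held by RB, had 683, 765 and 782 CPM in 5637, 398, 466 and 417 in TCC-SUP and at most 65.1 in the other lines (2.78 ± 0.07 SE). Its neighbours on chromosome 6 split: SOX4 (2.78) and CDKAL1 (2.45) were higher, although TCC-SUP overlapped 5637 for SOX4 and had more CDKAL1 (322 to 340 CPM against 206 to 219), while GMNN (-0.54) and RIPOR2 (-2.95) were lower. In the neighbour list of E2F3, 5 of 15 were higher and 6 lower (6 and 3 of 15 without CLS-439). In the neighbour list of ANO1, 4 of 8 were higher and 3 lower (1 and 4 of 8 without CLS-439).

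Interferon-stimulated genes, which cells switch on in answer to viral nucleic acid or interferon, were mostly lower in 5637. Of 28 tested, 23 were lower, 2 were higher and the median was -3.47; 13 of the 23 had all 3 libraries of 5637 below all 9 others. Without CLS-439 all 28 were called lower and the median was -4.00. The summed level of the list was 390 to 404 CPM in 5637, 1058 to 1552 in T24, 2888 to 5905 in TCC-SUP and 805 to 874 in CLS-439. BST2, or tetherin, had 0 counts in 5637, 138, 122 and 93.5 CPM in T24, 221, 150 and 296 in TCC-SUP, while CLS-439 had 3.5, 1.85 and 1.56. IFIT1, an antiviral RNA-binding protein, had 0.334, 0.138 and 0.0873 CPM in 5637, 50.7, 36.4 and 21.5 in T24, 217, 129 and 325 in TCC-SUP, while CLS-439 had 4.56, 2.52 and 3.42. Both were lowest in 5637 and highest in TCC-SUP, and the log2 fold change of IFIT1 was -7.34 ± 0.69 (SE, adjusted p 7.14e-06 by edgeR). IFI27 (0.508 to 0.786 CPM in 5637) and IFITM1 (0.0873 to 0.185) were also below all 9 other libraries. The 2 members called higher, IRF7 (1.13) and IFI44 (0.39), were called lower without CLS-439, at -0.70 and -1.90.

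**Figure D3:**
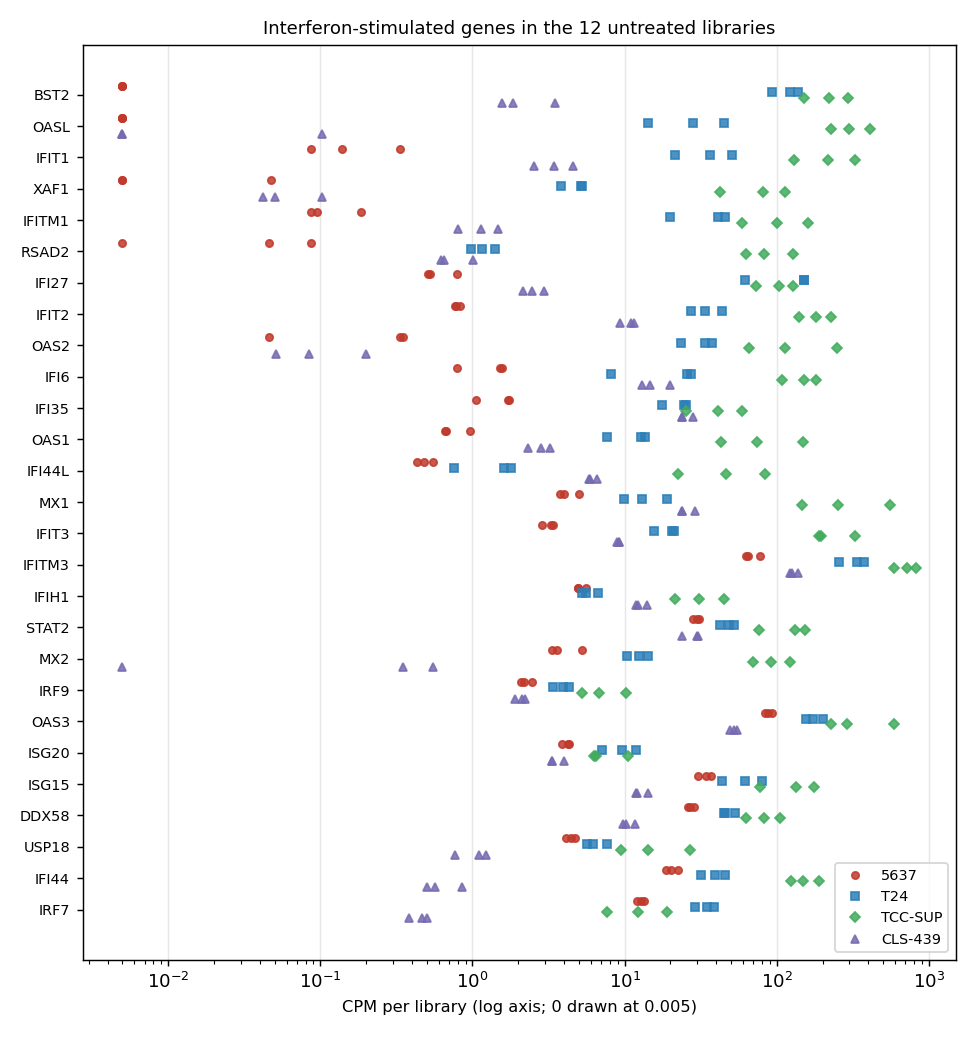
Level of 27 interferon-stimulated genes in each of the 12 untreated libraries, in CPM on a log axis, with 0 drawn at 0.005 and genes ordered by their log2 fold change. The mean of 5637 is the lowest of the 4 lines for 16 of the 27 genes and that of CLS-439 for 11, whereas TCC-SUP has the highest mean for 24.

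Antigen presentation followed at a smaller scale, with 11 of 15 MHC class I genes lower, 3 higher and a median of -0.61 (11 and 2 of 15 without CLS-439, median -1.02). HLA-B had 70.1, 66.4 and 59.5 CPM in 5637, 105, 120 and 76.6 in T24, 1060, 892 and 1022 in TCC-SUP, while CLS-439 had 396, 363 and 373 (-2.36 ± 0.12 SE, adjusted p 3.57e-13 by edgeR). HLA genes are near-identical in places, so reads may be split among them. The 3 higher genes were the peptide-trimming proteases ERAP2 (2.19) and ERAP1 (0.59) and the peptide transporter TAP2 (0.92). ERAP2 had 47.9, 53.2 and 52.8 CPM against at most 21, while ERAP1 was not called without CLS-439 (0.09).

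By position, called genes were not spread evenly. Among 675 windows of 2 Mb with at least 8 tested protein-coding genes, the highest median, 6.21, was at 72 to 74 Mb of chromosome 4, which holds CXCL8, CXCL6, CXCL1, CXCL5 and RASSF6. In that window 6 of 9 genes were higher and 1 was lower. Its median was 5.58 without CLS-439. Against single lines it was 1.45 for T24, 7.98 for TCC-SUP and 4.51 for CLS-439. The next 3 windows were adjacent on chromosome 3, from 8 to 14 Mb. Their medians were 3.04 (11 of 12 genes higher, at 10 to 12 Mb), 2.45 (14 of 14, at 12 to 14 Mb) and 2.35 (20 of 24, at 8 to 10 Mb). Without CLS-439 the medians were 2.69, 2.51 and 2.29. VHL, an E3 ligase subunit in that stretch, had 265, 241 and 285 CPM in 5637, 43.2, 43.1 and 39.2 in T24, 51, 39.7 and 45.9 in TCC-SUP, while CLS-439 had 15.2, 14.9 and 17.3. No library of another line came within the 5637 range, and the log2 fold change was 3.08 ± 0.08 (SE, adjusted p 1.1e-18 by edgeR). Several genes of unrelated function lay near that value: FANCD2, of crosslink repair, 2.91, BRK1, of the actin machinery, 3.28, SEC13, of vesicle coats, 2.99, and THUMPD3 3.37. Others were much closer to 0, such as CAMK1 (0.43), PRRT3 (0.53), TTLL3 (0.75) and CRELD1 (0.89). Values differed between neighbours at both ends. RAD18 (0.14, not called) lies before SRGAP3 (6.23), and CHCHD4 (-0.04, not called) and XPC (-1.36) lie after WNT7A (9.88). These ends were chosen after the values were seen. LHFPL4, named above, and WNT7A, a Wnt ligand at 427, 424 and 380 CPM against at most 4.37, lie inside this stretch. So does the luminal gene PPARG (1.23). DNA copy number was not measured in this series.

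**Figure D4:**
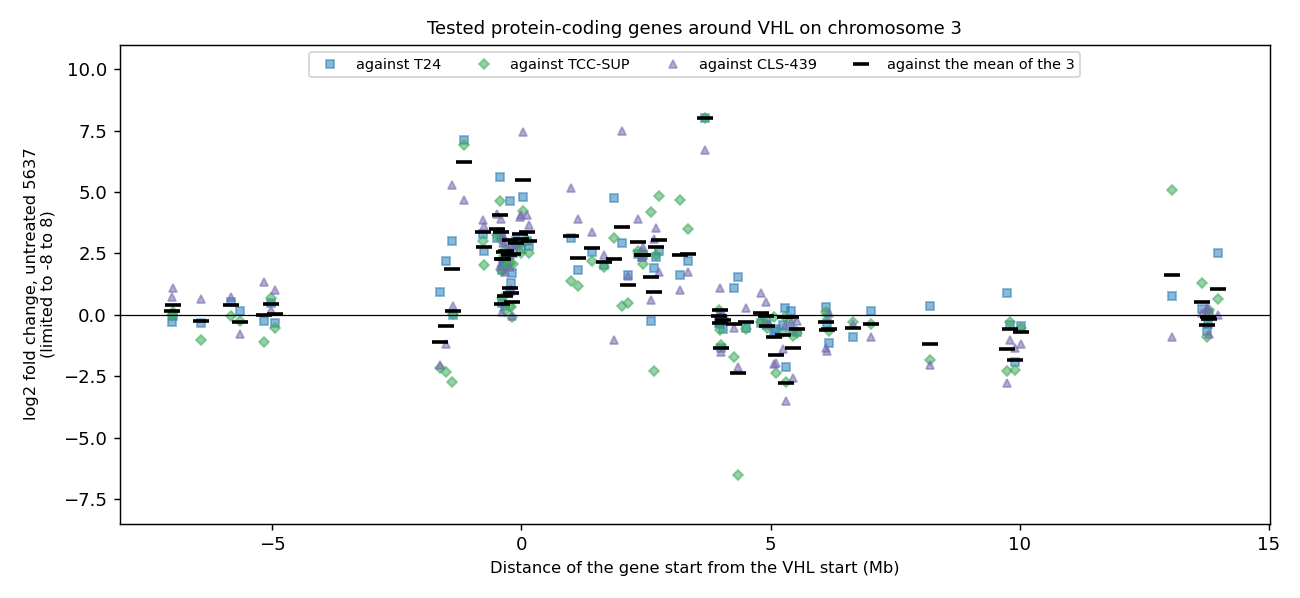
Log2 fold change of untreated 5637 for tested protein-coding genes within 15 Mb of VHL, against T24, TCC-SUP, CLS-439 (coloured points) and the mean of the 3 (black dashes); the horizontal axis is the distance of the gene start from the VHL start in Mb, values are limited to -8 to 8, and genes with a line at 0 counts are left out. The dash of RAD18 (0.14) lies near 0, those from SRGAP3 (6.23) to WNT7A (9.88, drawn at 8) lie above 0, and those of CHCHD4 (-0.04) and XPC (-1.36) at or below it.

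The windows with the lowest medians were at 140 to 142 Mb of the X chromosome (-3.01, SPANX and MAGEC genes, near-identical copies whose counts are uncertain), 22 to 24 Mb of chromosome 19 (-2.79) and 134 to 136 Mb of chromosome 11 (-2.23, -0.97 without CLS-439). On the X chromosome 2 of 8 genes were called lower, LDOC1 and MAGEC3, and no SPANX gene was called. The median there was -7.41 against TCC-SUP and 0.00 against CLS-439. In the chromosome 11 window 4 of 8 were called lower. Both medians include fitted values of genes with an adjusted p of 1 by edgeR. In the chromosome 19 window, 9 of 11 tested zinc finger genes were lower, among them ZNF681 (-4.06) and ZNF91 (-1.43), and ZNF724 was called higher, against 2 counts in CLS-439, but lower, at -0.73, without that line. Whole chromosomes differed as well: 68.0% of tested protein-coding genes on chromosome 16 were lower and 11% higher, and 54.7% were lower on chromosome 12. On chromosome 7, 65.9% were higher and 12% lower. The median log2 fold change without CLS-439 was -0.74 on chromosome 16, -0.39 on chromosome 12 and 0.46 on chromosome 7.

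**Figure D5:**
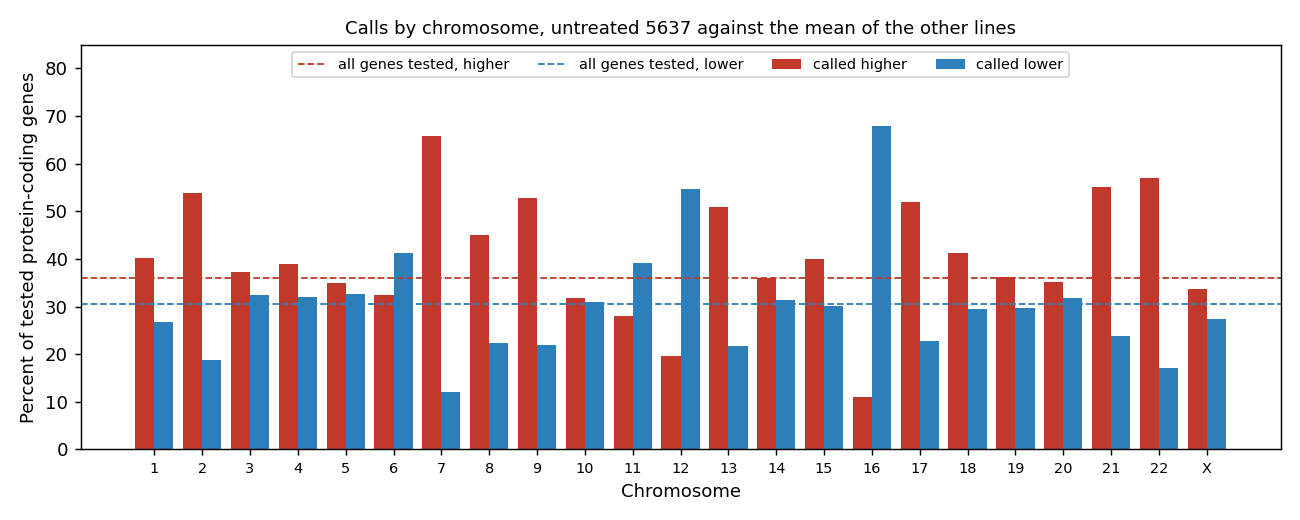
Percent of tested protein-coding genes on each chromosome called higher (red) or lower (blue) in untreated 5637 against the mean of the other lines. Dashed lines are the shares among all genes tested, of every gene type, so bars and lines cover different sets of genes. Chromosome 16 stands out with 68.0% lower and chromosome 7 with 65.9% higher.

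Most markers of other cell types were scarce in 5637. All 11 lymphoid and myeloid markers had under 30 counts over the 3 libraries, and 6 of them had 0, among them CD3E. Under 30 counts were also 7 of 8 endothelial, 7 of 9 neural, 5 of 7 smooth muscle, 5 of 6 melanocyte and 6 of 9 fibroblast markers. The highest smooth muscle, neural and melanocyte markers were TAGLN (410 counts), TUBB3 (239) and MITF (184). The endothelial KDR (43 counts) and the fibroblast THY1 were called higher, at 4.77 and 3.76 on the log2 scale. In the same lists 4 endothelial and 5 fibroblast markers were called lower. The summed fibroblast markers were 48.6 to 60.4 CPM in 5637, 2.52 to 3.56 in T24, 8307 to 11822 in TCC-SUP and 1503 to 1834 in CLS-439. In 5637 that sum came from COL1A1 (30.2, 23.9 and 27.1 CPM) and THY1 (29.3, 24 and 21.7), while COL3A1, DCN and LUM had 0 counts. Housekeeping genes gave 4 higher and 3 lower of 12, with a median of 0.08 (5 and 5 of 12 without CLS-439, median -0.03).

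The treated libraries of the same lines, which the untreated comparison did not use, gave 5656 genes higher (29.1%) and 4610 lower (23.7%) of 19426 tested. Of genes tested in both, 4794 were higher in both sets, which is 70.3% of the untreated and 88.5% of the treated higher calls. Lower in both were 3883, or 66.5% and 85%, while 21 and 56 genes were called in opposite directions. KRT5 differed by 11.88 (log2) in treated cells, RB1 by -2.86, ZEB1 by -6.82, IFIT1 by -7.18 and VHL by 2.97. Basal genes were higher in 14 of 17 (median 5.54), epithelial genes in 27 of 30 (4.08) and interferon-stimulated genes lower in 22 of 28 (-3.49). A test of the line difference after the drug against that before it, over all 24 libraries, called 3 of 25 named genes (3.88% of all 20820 genes tested). TMEM173 was the widest: treated 5637 had 9.23, 6.18 and 8.14 CPM, against 38.5 to 105 in treated cells of the other lines.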

How the data were processed

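Messenger RNA libraries of 4 bladder cancer cell lines labelled as human were analysed from the gene counts that the authors deposited, whole numbers of reads per gene with no normalization. Per the submitters' processing notes, STAR 2.5.3a, featureCounts 1.6.2 and GRCh38 were used. Per the labels' protocols, the libraries were made with a stranded kit. Of 58381 gene IDs, 58216 matched GENCODE 29, which gave symbols and positions.

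The 12 untreated libraries were fitted in edgeR 4.0.16 (R 4.3.3, limma 3.58.1) with TMM scaling, filterByExpr, 1 mean per line and robust quasi-likelihood tests, which left 8 residual degrees of freedom. The genes tested held 99.93% of reads. A gene counted as called when its edgeR p, adjusted by Benjamini-Hochberg over all genes tested, was under 0.05. Treated libraries were fitted in the same way, and the difference between arms on all 24 libraries. Alternatives were RLE factors, no TMM, no filter, DESeq2 1.42.0, all 24 libraries, a replicate block, and leaving out CLS-439 or each library. On simulated counts over 18034 genes, the fit recovered 99% of planted 2-fold and 100% of 4-fold changes. Each gene had the same mean CPM in every library there, apart from 100 planted changes of each size. Changes were planted only in genes with a mean of 10 CPM or more. The simulation therefore does not cover genes with few counts, or a comparison in which most genes differ.

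The named genes were up to 12 protein-coding genes per direction, called, outside the range of the 9 other libraries, and at 10 CPM or more in 5637 (higher) or in each other line (lower), ranked by the gap to the nearest line. Where a line has 0 counts that rank depends on edgeR's prior count. List members, the 4 markers and genes of the windows were also named, and examples within lists were in part chosen after their values were seen. 1 named gene and some list members are not reported here. Members and lists were chosen with earlier results of these data known. Over all 6 pairs of lines, the deviations of same-numbered replicates correlated at -0.04 to 0.12 and not all above 0.1, so the numbers were not taken to pair samples. No 2 libraries of a line agreed within sampling noise (lowest chi-square per gene 4.1).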

Additional observations from a re-analysis of the deposited data

Results flagged for a closer look

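For 3 of 25 named genes the gap between 5637 and the other lines differed after mitomycin C from that before it, by a test of the difference itself in edgeR over all 24 libraries with Benjamini-Hochberg adjustment; 3.88% of all genes tested did so. Most named genes were chosen for a wide gap in the untreated libraries that this test also uses, which favours a narrower gap after treatment, and all 3 calls are narrowings. For TMEM173, which encodes STING, the log2 gap went from -5.22 untreated to -2.98 treated, a difference of 2.25 ± 0.34 (SE, adjusted p 0.000286). EMP3 went from -7.40 to -5.67, a difference of 1.75 ± 0.29 (SE, adjusted p 0.000802), with 1.98, 2.2 and 2.19 CPM in treated 5637. The gap of IL1A narrowed from 8.08 to 6.77, a difference of -1.30 ± 0.37 (SE, adjusted p 0.0497). Treated 5637 had 1260, 511 and 728 CPM of IL1A and treated T24 135, 60.7 and 70.3, against 16.2, 8.4 and 8.6 in untreated T24.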

How the results depend on the processing

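Counts of called genes stayed within 1.5 times their values under every alternative run, for both arms. In the untreated comparison, leaving out each library in turn gave 6605 to 7273 genes higher and 5393 to 5948 lower. Without TMM 6374 were higher and 6546 lower, without a filter 8092 and 6051, and by DESeq2 6842 and 6764. The replicate block gave 7093 higher and 5993 lower untreated, and 6071 and 5032 treated. Of 3037 values of the 160 genes named in the report, under the alternatives for the untreated comparison, 2982 kept their direction and their side of the threshold, 26 were no longer called, 20 became called and 9 changed sign. Of these 9, 8 came from leaving out the CLS-439 libraries: CASP1 (-1.71), CD44 (-0.18), GATA3 (-0.29), IFI44 (-1.90), IL18 (-1.10), IRF7 (-0.70), OCLN (-0.81) and ZNF724 (-0.73). CHCHD4, not called in either case, became 0.02 without replicate 4 of 5637 and ranged from -0.07 to 0.02 with each library left out in turn. The cause was not tested. Depth limits genes with few counts in a line: with 0 to 3 counts, levels or lower bounds are given, and fitted values of genes with little more, such as ZEB1 (9 counts in 5637), IFIT1 (12) and ANO1 (7 in CLS-439), rest on those few reads.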
